A study of Mus musculus with 2 samples.

Results

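The histone genes measured on these arrays were every non-control probe whose gene name in the scanner annotation begins with Hist1h to Hist4h, H2af, H3f3 or H1f. The rule found 67 probes under 47 gene names, of 41174 probes and 27962 names on the array. Names beginning with Hist were taken as replication-dependent histones (44 probes, 34 names), and the H2af, H3f3 and H1f names as variant histones (23 probes, 13 names). The question was whether the classes differed between vesicle and cell RNA, and in which direction each member lay.

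Histones package DNA into nucleosomes, whose core is built from H2A, H2B, H3 and H4 and closed by a linker histone H1. Replication-dependent histone genes lie in clusters, lack introns and are made mainly while DNA is copied; most of their mRNAs end in a stem-loop rather than a poly(A) tail. Most variant histones are made throughout the cell cycle from single genes with polyadenylated mRNAs. The variants include the replacement form of H3, H2A.Z, macroH2A and the linker histone of differentiated cells.

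The study compared RNA of microvesicles shed by 3T3-L1 adipocytes (ADMs) with RNA of the donor adipocytes on 2 Agilent mouse arrays. 3T3-L1 is a mouse preadipocyte line, here grown with 10% fetal serum and induced to adipocytes with insulin (10 µg/ml), dexamethasone (0.25 µM) and IBMX (0.5 mM). Vesicles were pelleted by ultracentrifugation from medium collected on day 11, when the cells were also harvested, and 250 ng of each total RNA was amplified and labelled. Whether amplification copied mRNAs with and without a poly(A) tail alike was not tested. Replicate 1 carried ADM RNA in Cy5 and cell RNA in Cy3, and replicate 2 the reverse. Both groups come from the same line and the same induction, with no uninduced cells and no other line. The pellet is defined by the spin alone, and a smaller share of vesicles carrying an mRNA cannot be told apart from less of it per vesicle. Each ratio is ADM-labelled over cell-labelled RNA by the dyes in the labels.

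The ADM-labelled channel was much the stronger. The 99th percentile of net signal over all probes was 44878 and 16957 for ADM-labelled RNA in replicates 1 and 2, against 645 and 2261 for cell-labelled RNA. Loess normalization sets probes of like brightness to balance. A ratio therefore says how a probe lies against probes of like brightness, and nothing about the amount of an mRNA. Over tested probes the arrays' ratios correlated at r = 0.93 across probes, which are not independent replicates. The arrays shared 1 slide and 1 scan. All 14 probes of the adipocyte markers were well above background in ADM-labelled RNA on both arrays, and 12 in cell-labelled RNA; their summed net signals were 1346280 to 2729540 and 10792 to 86721. None of the 11 endothelial probes was detected in either RNA. Of 15 macrophage and leukocyte probes, 3 were detected in ADM-labelled RNA and 1 in cell-labelled RNA. Of the 15 tested preadipocyte and fibroblast marker probes, 6 were called higher in ADM-labelled RNA and 0 lower. Of the 9 tested adipocyte marker probes 1 was called higher and 3 lower. The 3 lower probes, of Plin, Retn and Fabp4, gave -0.020, -0.32 and 1.49 with the scanner's processed ratios. The higher one, of Slc2a4, gave 1.76 there. Another Retn probe lay at 0.72 with loess and was not called. Adipoq, Cfd and Cidec had no tested probe. Over all tested probes 5.52% were called higher and 10.9% lower. The part of these markers in the histone results was not tested.

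Most histone probes gave signal in both RNAs. In ADM-labelled RNA 55 of 67 (82.1%) were well above background on both arrays, against 45.8% of all probes. In cell-labelled RNA the count was 41 (61.2%), against 23.8% of all probes. The classes lay close to each other: 35 of 44 replication-dependent probes and 20 of 23 variant probes in ADM-labelled RNA, 28 and 13 in cell-labelled RNA. Of the 55, 9 were detected on both arrays in ADM-labelled RNA and on neither in cell-labelled RNA, 6 of them replication-dependent. The reverse was seen for a single probe, that of H1fnt, a linker histone of the testis. These shares are near those of the whole array: 13.4% of histone probes and 12.96% of all probes were detected in ADM-labelled RNA alone, and 1.49% and 1.77% in cell-labelled RNA alone. The dim side of such a probe gives only a bound. Against the lowest signal of detected probes, this bound was 1.17-fold higher in ADM-labelled RNA for Hist1h2ae. For the clone probe of Hist2h2aa2 it was 1.12-fold. Both bounds are means of 2 arrays with loess, and a single array can lie below them. Hist1h2ae gave log2 ratios of 0.089 in replicate 1 and 0.39 in replicate 2. For the other 7 probes and H1fnt the probe's own dim signal lay above that floor, so their measured ratios are given and no bound. None of the 9 was called. Their mean log2 ratios ran from 0.0098 to 0.41 with loess and from 0.67 to 3.36 with the scanner's processed ratios.

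**Figure D1:**
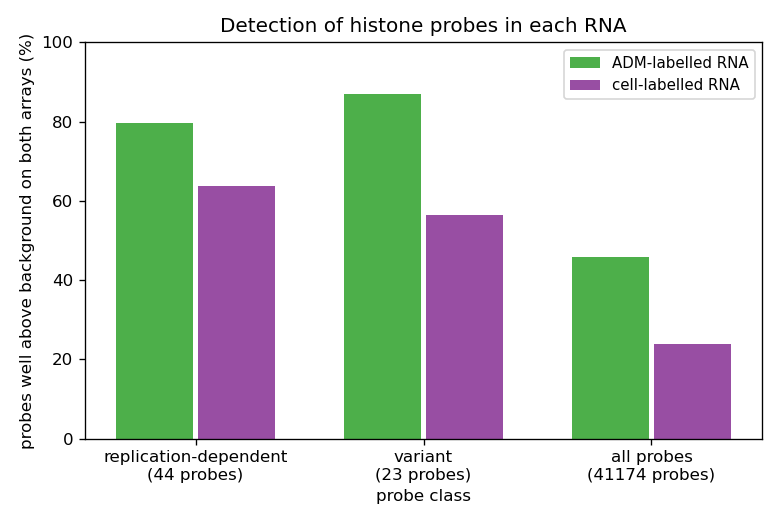
Share of probes well above background on both arrays (vertical axis, percent) for the 44 replication-dependent, 23 variant and all 41174 probes, with 1 bar per labelled RNA. The bars of both histone classes stand above those of all probes in each RNA, and the ADM bar is the taller in every class.

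For 51 histone probes a ratio could be tested: 33 replication-dependent probes from 28 genes and 18 variant probes from 10 genes, among 18117 probes in all. Histone mRNAs as a family lay near the balance point of the arrays. No replication-dependent probe and no variant probe was called higher in ADM-labelled RNA (limma, Benjamini-Hochberg adjusted p under 0.05), where 5.52% of all tested probes were. 3 replication-dependent probes (9.09%) and 2 variant probes (11.1%) were called lower, where 10.9% of all tested probes were. These shares are near the background, so they are no result about histones. At an unadjusted p under 0.05 the counts were 12 of 33 and 4 of 18, or 36.4% and 22.2%, with 35.8% over all tested probes.

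The median log2 ratio of replication-dependent probes was 0.068 (0.0098 and 0.0056 when taken within replicates 1 and 2). The median of variant probes was -0.039 (-0.0071 and -0.054), and that of all tested probes was 0.065. The replication-dependent median thus exceeded the variant median by 0.11, or by 0.017 in replicate 1 and 0.060 in replicate 2. With 2 arrays an exact sign-change permutation test cannot go below p = 0.5, and members are not replicates, so this difference is a description. Within 0.5 of 0 lay 27 of 33 replication-dependent probes (81.8%), 15 of 18 variant probes (83.3%) and 74.5% of all tested probes. At least 2-fold lower on both arrays was 1 replication-dependent probe; no histone probe was 2-fold higher on both, and over all tested probes these shares were 6.48% and 1.11%. By protein family the medians were -0.084 for H2A, 0.086 for H2B, 0.093 for H4 and 0.10 for the clustered H1 genes. Only 2 H3 probes of the clusters were tested, with a median of -0.42.

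**Figure D2:**
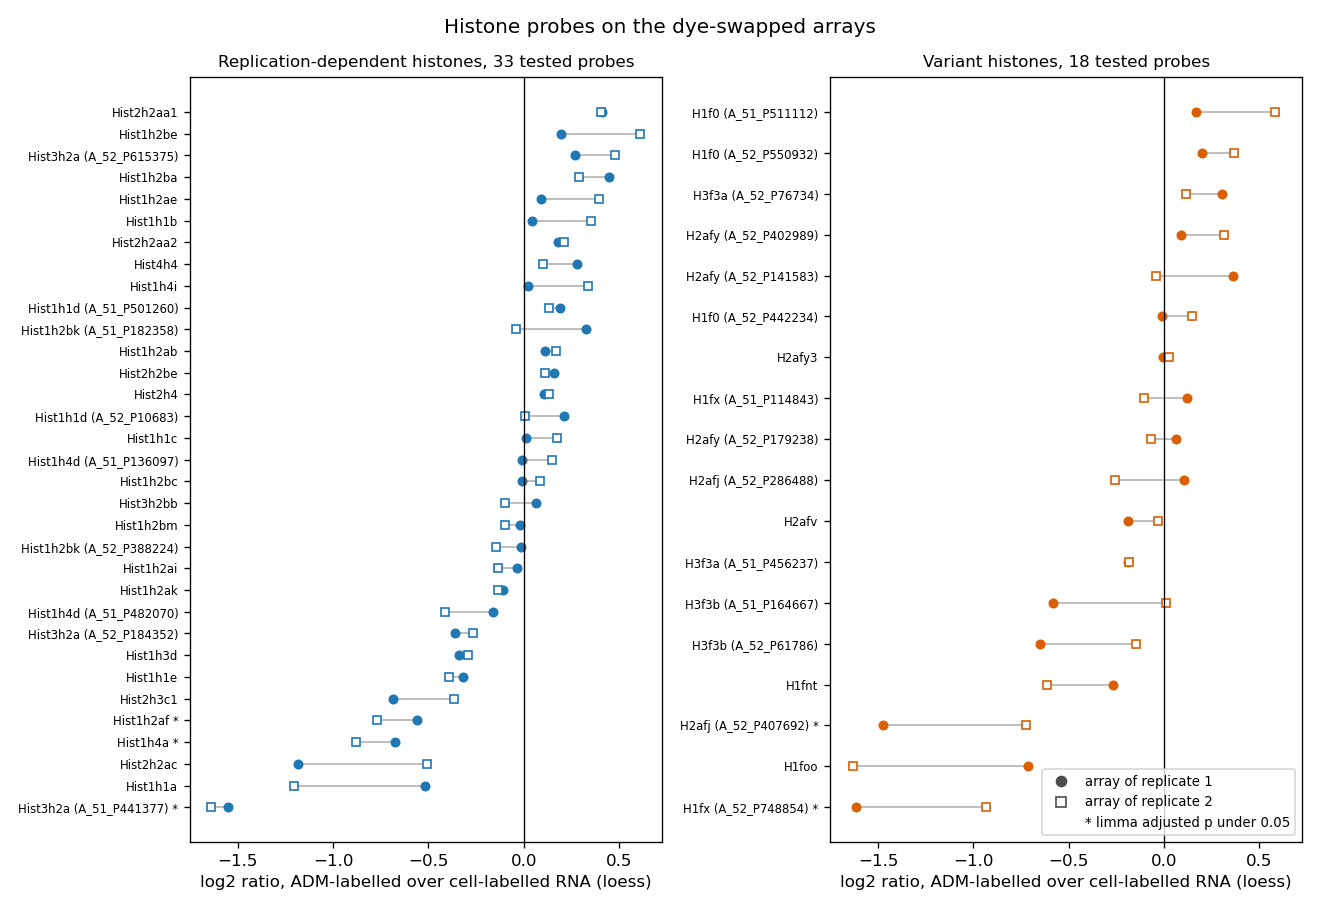
Log2 ratio of ADM-labelled over cell-labelled RNA (horizontal axis) for each of the 51 tested histone probes, replication-dependent on the left and variant on the right; a filled circle is replicate 1, an open square replicate 2, and an asterisk marks limma adjusted p under 0.05. Most probes lie within 0.5 of 0, and the 5 asterisks are all on the left of 0.

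The lowest replication-dependent probe was filed under Hist3h2a, a gene for H2A. Its net signal was 575 in ADM-labelled and 70.5 in cell-labelled RNA in replicate 1, and 331 against 165 in replicate 2. Its log2 ratios were -1.55 and -1.64, the lowest replication-dependent value on each array. The mean was 3.02-fold lower in ADM-labelled RNA (-1.60 ± 0.06 SD, n = 2, limma adjusted p = 0.0091). The other Hist3h2a probes stood apart from it, at -0.36 and -0.27 for one (A_52_P184352) and 0.27 and 0.48 for the other (A_52_P615375), and neither was called.

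The position of that probe (A_51_P441377) differs from its name. The annotation of mouse build mm7 in the files places it at chr11:59036261-59036320 on the minus strand. The other Hist3h2a probes lie on the plus strand, at chr11:59036430-59036489 and chr11:59036997-59037056, 109 bases away at the nearest. Together these plus-strand probes span 627 bases, more than the 508 bases that RefSeq gives the gene. Strand as written in the files equalled RefSeq's strand of the named gene for 18131 of 18216 probes (99.5%). RefSeq (GRCm38.p6) gives the clone from which this probe was designed as a synonym of H2bu1-ps, the gene the files call Hist3h2bb, which lies 172 bases from H2aw (Hist3h2a). The probe filed under Hist3h2bb itself, at chr11:59035740-59035799 on the minus strand, gave 0.06 and -0.10 and was not called. Which transcript the low probe measured was not tested.

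Hist1h4a, a gene for H4 in the large cluster on chromosome 13 (chr13:23126834-23126893, mm7), gave net signals of 4630 against 117 in replicate 1 and 1535.5 against 326 in replicate 2. Its log2 ratios were -0.68 and -0.88, both below 0. The mean was 1.71-fold lower in ADM-labelled RNA (-0.78 ± 0.14 SD, n = 2, limma adjusted p = 0.032). Hist1h2af, a gene for H2A in the same cluster (chr13:22899920-22899979), had a probe with net signals of 1469 against 48.0 and 624 against 137, at log2 ratios of -0.56 and -0.77. That probe (A_52_P498210) was 1.59-fold lower (-0.67 ± 0.15 SD, n = 2, limma adjusted p = 0.042). Both probes match several near-identical genes: the files list RefSeq mRNAs of 3 H4 genes for the first and 4 H2A genes for the second. Their signals cannot be assigned to a single gene. Other tested probes that list some of the same genes were not called. Hist1h4d (A_51_P136097) had a mean of 0.068, Hist1h2ai -0.084 and Hist1h2ak -0.12. Among untested probes that share these genes, Hist1h4f gave 0.22 in replicate 2. The second Hist1h2af probe (A_52_P165633) gave -1.29 in replicate 1.

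Upstream sequence is shown for the 5 gene names with a called probe. It sets promoters of clustered and variant histones side by side. Whether the called probes measured transcripts of these promoters was not tested. Each run is 5′ to 3′ on the gene's strand and ends at the base before the RefSeq start of the gene (GRCm38.p6). Capitals mark CCAAT (or ATTGG), the core of a box bound by the factor NF-Y; TATAA (or TTATA), the core of a TATA box; and ATGCAAAT (or ATTTGCAT), the octamer known from H2B promoters. The strands were both searched, and no matches overlapped in these sequences. The runs cover chr13:23761250-23761499, chr13:23533625-23533874, chr11:58954513-58954684, chr6:136807998-136808247 and chr6:87981483-87981732, on the minus strand for Hist1h4a and H1fx and the plus strand for the others. The run of Hist3h2a is the whole stretch between it and its divergent neighbour.
Hist1h4a: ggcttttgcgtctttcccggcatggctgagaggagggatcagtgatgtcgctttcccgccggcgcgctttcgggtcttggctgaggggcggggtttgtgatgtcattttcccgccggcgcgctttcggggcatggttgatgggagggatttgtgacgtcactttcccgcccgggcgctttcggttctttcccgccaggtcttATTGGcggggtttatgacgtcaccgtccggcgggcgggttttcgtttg
Hist1h2af: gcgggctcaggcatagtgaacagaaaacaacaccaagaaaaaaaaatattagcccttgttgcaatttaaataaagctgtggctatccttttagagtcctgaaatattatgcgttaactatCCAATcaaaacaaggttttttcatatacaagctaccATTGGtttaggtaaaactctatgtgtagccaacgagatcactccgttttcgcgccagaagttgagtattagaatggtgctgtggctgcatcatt
Hist3h2a: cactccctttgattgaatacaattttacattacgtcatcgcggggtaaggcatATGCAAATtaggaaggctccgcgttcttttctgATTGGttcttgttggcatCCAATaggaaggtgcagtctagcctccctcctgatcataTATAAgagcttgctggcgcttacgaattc
H2afj: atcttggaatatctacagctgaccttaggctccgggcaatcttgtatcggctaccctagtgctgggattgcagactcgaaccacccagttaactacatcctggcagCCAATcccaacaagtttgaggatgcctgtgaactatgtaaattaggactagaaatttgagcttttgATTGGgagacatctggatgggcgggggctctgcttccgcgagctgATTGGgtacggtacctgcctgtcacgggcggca
H1fx: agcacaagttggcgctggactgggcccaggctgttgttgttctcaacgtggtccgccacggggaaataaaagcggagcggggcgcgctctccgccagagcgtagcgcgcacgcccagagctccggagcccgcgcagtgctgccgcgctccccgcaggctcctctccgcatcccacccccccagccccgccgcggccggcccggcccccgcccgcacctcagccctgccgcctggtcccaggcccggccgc

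The stretch beside Hist3h2a holds CCAAT on each strand, 1 octamer and 1 TATAA, while the run of H1fx holds none of these motifs and is 75.2% G and C. RefSeq promoters were found for 27 of 34 replication-dependent names (28 promoters) and 10 of 13 variant names. In the 250 bases upstream, CCAAT was present in 25 of 28 replication-dependent and 5 of 10 variant promoters, against 33.8% of all 32851. TATAA was present in 19 of 28 and 1 of 10, against 22.8%. The octamer was present in 10 of 28 and 1 of 10, against 1.60%. Promoters of the clusters are related by duplication, so they are not independent. The classes differed in these letters, while the medians of their ratios lay 0.11 apart.

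The remaining low replication-dependent probes did not pass the test. Hist1h1a, a linker histone gene, gave -0.52 and -1.20 (limma adjusted p = 0.066), with net signals near background (51.4 and 18.3 in ADM-labelled, 21.1 and 49.2 in cell-labelled RNA). It was well above background on both arrays in cell-labelled RNA and on 1 in ADM-labelled RNA; with processed ratios it gave -3.08 and was called (limma adjusted p = 0.020). Hist2h2ac, an H2A gene of the cluster on chromosome 3, gave -1.18 and -0.51 (limma adjusted p = 0.067) at very strong signals of 86865 and 32912 in ADM-labelled RNA. The files list RefSeq mRNAs of 4 H2A genes for its probe. They place the probe on the plus strand, while RefSeq has the named gene on the minus strand. Hist2h3c1, for H3, gave -0.69 and -0.37. Hist1h1e, for a linker histone, gave -0.32 and -0.39, and Hist1h3d, for H3, gave -0.34 and -0.29. In these 5 genes both arrays lay below 0, and the arrays differed most in Hist1h1a and Hist2h2ac.

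At the other end no replication-dependent probe passed the test. Hist2h2aa1, for H2A, gave 0.41 on both arrays, with net signals of 4285 and 1611 in ADM-labelled and 41.8 and 124 in cell-labelled RNA (limma adjusted p = 0.080). Hist1h2be, for H2B, gave 0.20 and 0.61 and was not detected in cell-labelled RNA. Hist1h2ba, the H2B gene known from testis, gave 0.45 and 0.29 with signals of 8095 and 2776 in ADM-labelled RNA. The sense-strand Hist3h2a probe A_52_P615375 lay at a mean of 0.37. These lay above 0 on both arrays and within 0.61 of it. Hist1h2ae and Hist1h1b, at means of 0.24 and 0.20, were detected in ADM-labelled RNA alone, as was a clone probe of Hist2h2aa2 at 0.20. Hist4h4, an H4 gene on chromosome 6, gave 0.28 and 0.10. The 17 replication-dependent probes between these ends lay from -0.31 to 0.18 in the mean.

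Among the variants, the H3 replacement genes were measured by probes of strong signal in both RNAs. H3f3a gave -0.19 and -0.18 at one probe (A_51_P456237, net signals of 37094 against 326 and 12393 against 1317) and 0.30 and 0.12 at the other (A_52_P76734). H3f3b gave -0.58 and 0.01 at one probe (A_51_P164667, net signals of 38185 against 421 and 13629 against 1258) and -0.65 and -0.15 at the other (A_52_P61786). Neither gene was called, and the H3f3b arrays differed by more than their mean. The 4 probes had a median of -0.24.

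Of the H2A variants, H2afy, which encodes macroH2A, had 3 probes with means of -0.0028, 0.16 and 0.20, none called. H2afv, a gene for H2A.Z, had net signals of 19772 and 7247 in ADM-labelled and 220.2 and 736 in cell-labelled RNA and gave -0.19 and -0.03. The probe filed under H2afy3 had a mean of 0.012; the files place it on chromosome 15, and its gene was not matched in RefSeq. H2afj, an H2A variant, differed between its probes. The brighter probe (A_52_P407692, chr6:136833216-136833275, mm7) gave net signals of 140962 against 1474 in replicate 1 and 55909 against 7037 in replicate 2. Its log2 ratios were -1.47 and -0.72, a mean 2.14-fold lower (-1.10 ± 0.53 SD, n = 2, limma adjusted p = 0.049). This call held in 1 of 11 alternatives: the adjusted p was 0.052 to 0.058 with the brightest probe per gene, no filter or robust moderation, 0.31 with trended moderation and 0.20 with an offset of 10, where the value was -0.33. The dimmer probe (A_52_P286488), 1178 bases on in the same orientation, gave 0.11 and -0.26.

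Of the linker variants, H1f0, the H1 of differentiated cells, had 3 probes with means of 0.069, 0.29 and 0.38, none called. The probes of the higher means overlap nearly whole on the genome, and neither was detected in cell-labelled RNA. With processed ratios they gave 3.36 and 3.22 and were called higher (limma adjusted p = 0.016 and 0.023), and with quantile normalization 1.20 and 1.06, also called; the brighter H1f0 probe gave 0.067 and 0.17 there. H1fx had a probe designed on an expressed sequence tag (A_52_P748854) with net signals of 61487 against 1000 and 31937 against 4958. The files give that probe no position and list no RefSeq gene for it, so it is H1fx by name alone. It gave -1.61 and -0.93, a mean 2.42-fold lower (-1.27 ± 0.48 SD, n = 2, limma adjusted p = 0.034). This call held in 5 of 11 alternatives. The H1fx probe filed under its RefSeq mRNA (A_51_P114843) gave 0.12 and -0.10 at low signal and was not detected in cell-labelled RNA. H1foo, the linker histone of oocytes, gave -0.71 and -1.63 (limma adjusted p = 0.057), with net signals of 129 and 52.5 in ADM-labelled and 27.0 and 76.3 in cell-labelled RNA. H1fnt gave -0.26 and -0.61, and -3.44 with processed ratios, where it was called lower (limma adjusted p = 0.021). The linker variants hence held both the lowest and the highest variant means, -1.27 and 0.38.

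Probes filed under the same gene name could lie as far apart as probes of different genes. Of 10 histone genes with several tested probes, 3 had means more than 1 apart in log2: Hist3h2a (1.97), H1fx (1.28) and H2afj (1.02). All 3 hold a called probe beside an uncalled one. In Hist3h2a and H1fx no RefSeq gene is listed for the called probe, so these ranges may not lie within a single gene. The other 7 genes had ranges from 0.05 to 0.40.

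**Figure D3:**
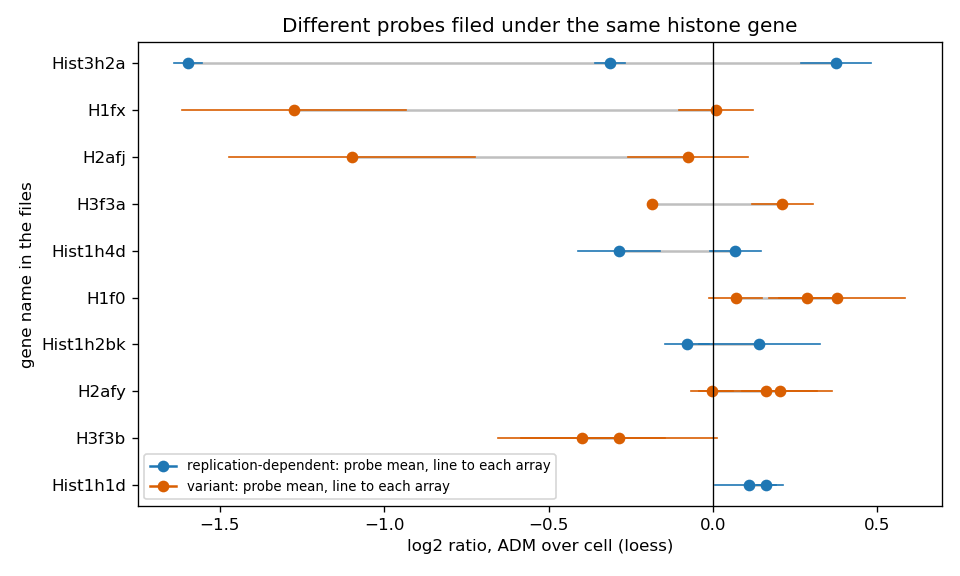
Mean log2 ratio of each tested probe (points) for the 10 histone genes with several tested probes, with a coloured line from array to array. Hist3h2a, H1fx and H2afj, at the top, spread over more than 1, and the other 7 genes over 0.40 or less.

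The brightest called probes lay where most probes of the arrays were below 0. H2afj (A_52_P407692) had 37 tested probes brighter than it, Hist2h2ac 93 and the H1fx tag probe 96. The 50 brightest tested probes had a median of -2.39 in replicate 1 and -1.59 in replicate 2, and 84.0% were called lower. Those ranked 51 to 100 had medians of -1.84 and -0.95, and 62.0% were called lower. H2afj and H1fx lay above the median of their band on each array. With a loess span of 0.1 in place of 0.3, chosen after seeing the data, the 100 brightest moved from a median of -1.63 to -0.65. H2afj then gave -0.011 (limma adjusted p = 0.96) and H1fx -0.45 (limma adjusted p = 0.059). The Hist3h2a clone probe, Hist1h4a and Hist1h2af lay at lower signal, where the median of probes was near 0, and stayed called at -1.71, -0.89 and -0.82 with that span.

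**Figure D4:**
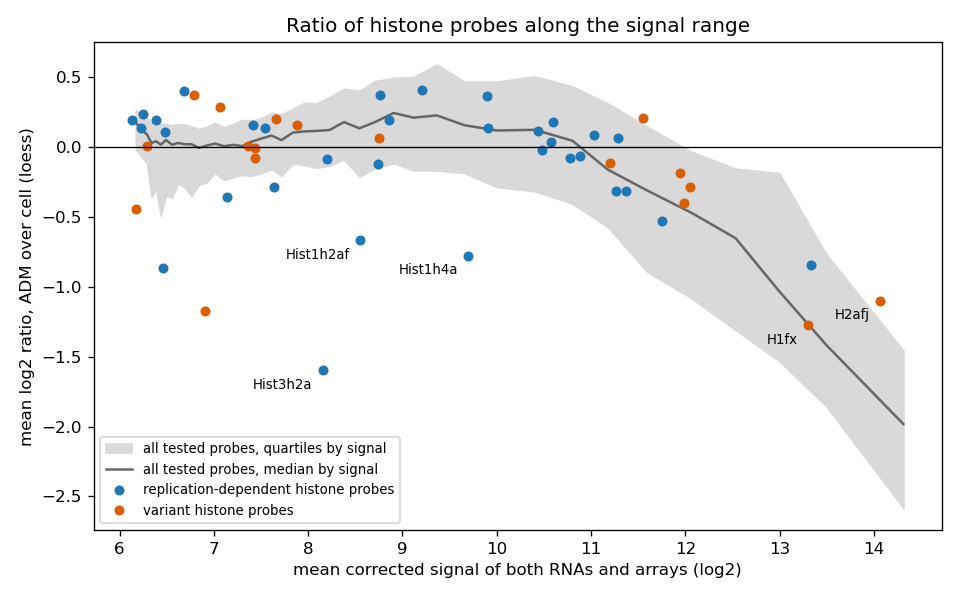
Mean log2 ratio (vertical axis) against mean corrected signal (horizontal axis, log2) for the tested histone probes, over the median and quartiles of all 18117 tested probes in bins of signal. Hist1h2af, Hist1h4a and Hist3h2a lie below the grey band, while at the bright end H1fx lies near the grey median line and H2afj just above the band.

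The direction of the family depended on how the arrays were scaled. With the scanner's processed ratios the median of all tested probes was 0.69, the replication-dependent median 0.16 and the variant median 0.36, so the class order turned (-0.20 in place of 0.11). There 5 replication-dependent and 3 variant probes were called higher and 4 and 2 lower, where 32.0% and 14.2% of all tested probes were. With median centring, which does not level the ratios along the signal range, the medians were 2.04, 3.64 and 2.73. There 24 of 33 and 15 of 18 probes were called higher (59.5% of all tested probes) and 0 lower (1.46%). The Hist3h2a clone probe, Hist1h4a and Hist1h2af gave -2.49, -0.98 and -0.95 with processed ratios, all called lower, and 1.26, 3.11 and 2.55 with median centring. H2afj gave 0.25 with processed ratios and 4.43 with median centring, and H1fx -0.37 and 3.95. When spots with an outlying local background were kept, limma called 0 of 19807 probes (158 at an unadjusted p under 0.05), so all 5 calls ended.

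**Figure D5:**
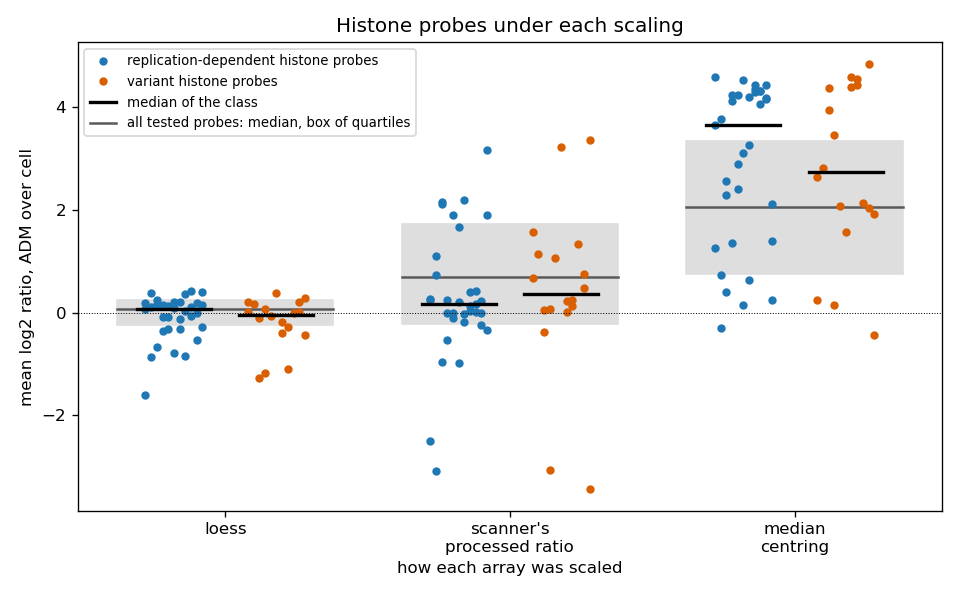
Mean log2 ratio (vertical axis) of the 33 replication-dependent and 18 variant probes under 3 ways of scaling the arrays, with class medians as black bars and the median and quartiles of all tested probes in grey. With loess both classes sit at the grey median; with processed ratios both medians lie below it, and with median centring both lie above it.

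Many replication-dependent probes cannot tell copies of a histone gene apart. RefSeq mRNAs of several genes were listed for 13 of 44 (the files list at most 4 entries for a probe), of 1 gene for 24 and of none for 7; no variant probe listed several. All 13 shared probes were well above background in both RNAs on both arrays, with a median net signal of 15842 in ADM-labelled RNA in replicate 1. Of the 24 probes with 1 gene, 13 were detected on both arrays in cell-labelled RNA and 19 in ADM-labelled RNA. Among tested probes 2 of 11 shared ones were called lower (median -0.084), and 0 of 19 with 1 gene (median 0.12), where 10.9% of all tested probes were, so these counts are no result about shared probes. The remaining replication-dependent call was the Hist3h2a clone probe, for which no RefSeq gene is listed.

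The other 16 members gave no tested ratio. A flag for an outlying local background on 1 array left out 7, of which 6 passed the background limit in each RNA on each array. Hist1h2aa, the H2A gene known from testis, had net signals of 85236 and 33933 in ADM-labelled and 917 and 3844 in cell-labelled RNA, and a ratio of -0.46 in replicate 2. The second Hist1h2af probe (A_52_P165633) had 118779 and 46133 against 1211 and 5379, and gave -1.29 in replicate 1. Hist1h4f gave 0.22 in replicate 2. H2afx, which encodes H2A.X of the DNA damage response, gave 0.19 in replicate 1. H2afz, the main gene for H2A.Z, gave 0.04 and another H3f3a probe 0.09, both in replicate 2. Hist1h3a was flagged and not detected. The 9 members without a flag passed the background limit on both arrays in neither RNA: probes of Hist1h1d, Hist1h1t, Hist1h2ac, Hist1h2bc, Hist2h2aa2, Hist3h2ba, Hist4h4, H2afy2 and a clone probe of H2afz that the files place on chromosome 6, not on chromosome 3 with the gene.

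Genes that act with histones were read from 4 lists. In the processing of histone mRNA, 1 of 22 tested probes was called lower and 0 higher (median 0.14): Zfp473, a zinc finger protein that acts with the U7 particle, at -2.55 and -3.44 (limma adjusted p = 0.014). That probe matched no RefSeq gene and is Zfp473 by the files' name alone; its net signals were 40.1 and 10.3 in ADM-labelled RNA, above background on 1 array, and 96.3 and 199 in cell-labelled RNA. The probe that matched Zfp473 in RefSeq was detected in neither RNA. The next lowest probe, of the helicase Upf1, lay at -0.59, and the highest, both of the 3′ end nuclease Cpsf3, at 0.45 and 0.55. Among histone chaperones 5 of 36 were called lower (13.9%) and 0 higher (median -0.086). Npm3, of the nucleoplasmin family, was lowest of them at -3.62 and -4.31 (limma adjusted p = 0.0053), with net signals of 3415 and 1270 in ADM-labelled and 617 and 2821 in cell-labelled RNA. A probe of Npm1, nucleophosmin, followed at -2.18 and -1.93 (limma adjusted p = 0.0073). The highest, of Rbbp7 and Nap1l4, lay at 0.45 and 0.46 and were not called. The other Nap1l4 probes lay at -0.26 and 0.24.

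Of 37 tested probes for S phase and division 1 was called lower and 0 higher (median -0.00044): Lig1, the replicative DNA ligase, at -1.86 and -2.07 (limma adjusted p = 0.0074). The next lowest, the mitotic kinase Plk1, lay at -0.51, and the highest, Rrm1 of ribonucleotide reductase and Mcm4 of the replicative helicase, at 0.42 and 0.48. Of 27 probes for enzymes that modify histones 2 were called lower and 0 higher (median 0.041): the deacetylases Hdac3, at -1.36 and -1.92 (limma adjusted p = 0.020), and Hdac1. A Suv420h2 probe lay at -1.24 and another, brighter in ADM-labelled RNA, at -0.14. Probes of its relative Suv420h1 lay at 0.36 and 0.24, with Dot1l at 0.28, none called. In all 4 lists 0 probes were called higher, and the shares called lower ran from 2.70% to 13.9%, around or below the 10.9% of all tested probes. The calls of these lists too ended when outlying local backgrounds were kept. With median centring Zfp473 gave -1.62 and stayed called lower (limma adjusted p = 0.035), while Npm3, Npm1, Lig1 and Hdac3 gave 0.30, 2.68, 1.71 and 2.07.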

How the data were processed

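RNA of ADMs and donor cells was read on 2 arrays. Per the file headers, the deposited spot intensities (mean spot, median local background) come from Feature Extraction 10.5.1.1 without normalization, and the deposited log10 ratio was background-subtracted and dye-normalized by that software. The series table equalled that log10 ratio, turned to ADM over cell, for 100% of spots (within 0.0001). Probe positions are mm7. Background was corrected with normexp (offset 50), arrays were loess-normalized (controls at weight 0), and log2 ratios turned to ADM over cell were tested per probe against 0 with limma 3.58.1 in R 4.3.3, with Benjamini-Hochberg adjustment over all tested probes. Tested probes had a value on both arrays and were well above background (50% of spots or more) in 1 RNA on both.

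Spots flagged for the feature or the local background were left out. The second of these choices was made in an earlier analysis after 0 genes had passed without it. Members and lists were also chosen with earlier results of these data known. Named singly were all variant genes with a tested probe, the 8 highest and 8 lowest Hist probes, genes whose probes differed by over 1, the 5 brightest Hist probes in each RNA, and the 2 highest and 2 lowest probes of each list; others were chosen after their values were seen. No probe carried the saturation flag. A ± value is the SD of 2 arrays, whose number limits the precision. The labels call the replicates biological; no source used here says whether cultures were separate, so p-values measure the spread between these arrays. The test was tried on simulated data.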

Additional observations from a re-analysis of the deposited data

How the results depend on the processing

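Counts are given for replication-dependent probes lower and higher, then variant probes lower and higher (3, 0, 2 and 0 as reported). They were 0, 24, 0 and 15 with median centring; 4, 5, 2 and 3 with processed ratios; 0, 0, 0 and 0 with outlying local backgrounds kept; 3, 0, 1 and 0 with no filter on dim probes; 5, 0, 3 and 0 with an offset of 10; 4, 1, 1 and 0 with trended moderation; 3, 0, 1 and 0 with robust moderation; and 2, 0, 1 and 0 with the brightest or the median probe of a gene. Alternatives chosen after seeing the data gave 3, 0, 1 and 0 (loess span 0.1), 4, 7, 2 and 6 (quantile normalization of the channels), 2, 0, 1 and 0 (probes of RefSeq mRNAs) and 1, 0, 2 and 0 (probes listing at most 1 gene). Over all 18117 tested probes 1969 were called lower and 1000 higher as reported. These totals were 265 and 10778 with median centring, 2574 and 5798 with processed ratios, and 3059 and 1864 with the offset of 10. Trended moderation gave 2448 and 1706, and robust moderation 1736 and 929. A span of 0.1 gave 2461 and 922, and quantile normalization 3031 and 7425. No filter gave 1922 and 1112 of 37976. The brightest probe gave 1604 and 765 of 12923 genes, and the median probe 1472 and 648.

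The replication-dependent median, the variant median and their difference (0.068, -0.039 and 0.11) were 3.64, 2.73 and 0.91 with median centring; 0.16, 0.36 and -0.20 with processed ratios; 0.011, 0.0049 and 0.0057 with local backgrounds kept; 0.037, -0.063 and 0.10 with no filter; -0.069, -0.29 and 0.22 with detection required in both RNAs; 0.074, 0.00048 and 0.073 with the offset of 10; 0.053, -0.24 and 0.29 with the brightest probe; 0.034, -0.23 and 0.26 with the median probe; 0.055, 0.023 and 0.032 with the span of 0.1; 0.27, 0.48 and -0.21 with quantile normalization; 0.053, 0.0098 and 0.043 with RefSeq probes; and 0.13, -0.039 and 0.17 with probes of at most 1 gene. Single arrays gave 0.0056 to 0.0098, -0.054 to -0.0071 and 0.017 to 0.060; limma counts need both arrays.

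With median centring, where the median of all tested probes was 2.04, these named probes below 0, called there or as reported, turned positive: H3f3b 4.54 and 4.38, H3f3a 4.58, H2afv 4.37, H2afy 2.13, H2afj 2.08 and 4.43, H1fx 3.95, Hist3h2a 1.26 and 4.22, Hist2h2ac 4.43, Hist1h4a 3.11, Hist1h2af 2.55, Hist2h3c1 4.16, Hist1h3d 4.18, Upf1 2.64, Npm3 0.30, Npm1 2.68, Lig1 1.71 and Hdac3 2.07. Hist1h1e, Plk1, H1foo and the lower Suv420h2 probe turned positive (1.36, 1.35, 0.14 and 0.17) with no call in either setting. Zfp473, H1fnt and Hist1h1a stayed below 0 (-1.62, -0.43 and -0.30). H2afj turned to 0.25 with processed ratios and 0.57 with quantile normalization, and the H2afy probe near 0 to 0.57 with the latter. The cause was not tested, except that kept local backgrounds narrowed the spread of all ratios (SD 0.84 to 0.34 in replicate 1, 1.03 to 0.52 in replicate 2). The fit with median centring had infinite prior degrees of freedom, so its p-values do not carry a probe's own spread. Signal over background limited the cell-labelled channel: 41 of 67 histone probes were detected there on both arrays. Each array holds both RNAs and gives 1 ratio, so the pairing lies within the array and there is a single group of ratios.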
